A study of Mus musculus with 6 samples.

Results

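The ephrin, semaphorin, slit and netrin guidance genes of the embryonic mouse lung were taken from a table of 24402 loci by gene symbol alone. The symbols were those of the Eph receptors, the ephrins, the semaphorins of classes 3 to 7, the plexins, the Slit ligands and Robo receptors, and the netrins with their receptors Dcc, neogenin and Unc5. The choice by symbol gave 68 loci, made up of 14 Eph receptors, 8 ephrins, 20 semaphorins, 9 plexins, 7 Slit and Robo genes and 10 netrins or netrin receptors. Of these, 58 had a mean of at least 1 FPKM over both genotypes, beside 12716 of all 24402 loci. FPKM scales the fragments of a gene by transcript length and by the library's total, so levels can be set side by side between genes.

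Guidance genes were first known from growing axons, where a secreted or membrane-bound ligand attracts or repels a cell that carries its receptor. Eph receptors are tyrosine kinases that bind ephrins on a neighbouring cell. Semaphorins signal through plexins, the secreted class 3 members mostly together with neuropilins. Slit ligands bind Robo receptors, and netrins bind Dcc, neogenin and the Unc5 receptors. In branching organs such as the lung the same families are known to act between epithelium, mesenchyme, vessels and nerves, with netrins produced by the epithelium of the buds.

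RNA came from whole lungs of C57BL/6 embryos at 12.5 *dpc*, with 3 wild-type libraries and 3 libraries of the genotype Yap-flox/flox; Shh-Cre/+, called *Yap* mutant. With this driver *Yap* is deleted in the lung epithelium and kept in the mesenchyme. The labels give no Cre or floxed allele for the control lungs, so the presence of Shh-Cre and the loss of *Yap* cannot be told apart. Each genotype has a single deposited FPKM value per locus, a summary by the authors over the libraries, so no spread between libraries, depth or test stands behind any difference given here. A locus was called higher or lower when the ratio of *Yap* mutant to wild-type FPKM, with 0.1 FPKM added to each, was at least 1.5 in either direction and its mean was at least 1 FPKM. This scale understates the change of low genes.

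The targeted gene, *Yap1*, had 76.1 FPKM in wild-type and 65.6 FPKM in *Yap* mutant lungs. Whole-lung RNA includes cells that keep *Yap*, so this value does not check the labels. Lists of cell type markers differed between the genotypes. Of 25 epithelial markers 13 were called lower and 2 higher, and their summed level was 943 FPKM in wild-type and 827 FPKM in *Yap* mutant lungs. Their median log2 ratio was -0.60, single markers ran from -2.71 (*Shh*) to 0.97 (*Sftpc*), and the log2 ratio of the sums was -0.19. The authors state that the Shh-Cre allele contributed to the lower *Shh* level but was unlikely to be its only source. Of 11 cardiac muscle markers past the filter all 11 were called higher, and the 14 on the list summed to 131 FPKM in wild-type and 958 FPKM in *Yap* mutant lungs. Of 8 smooth muscle markers 5 were called lower and 1 higher, with a median of -1.06. Of 14 neural and glial markers 5 were called lower, with a median of -0.51, and among 22 mesenchymal marker loci 6 were called lower and 2 higher, with a median of 0.05. None (0) of 15 endothelial, 6 mesothelial and 8 macrophage markers was called, and 1 of 10 erythroid markers was called higher. No marker on these lists was listed at 0 in wild-type lungs. In RNA from a whole organ, fewer cells of a type and less RNA per cell cannot be told apart, and the part of these shifts in the guidance gene values was not tested.

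**Figure D1:**
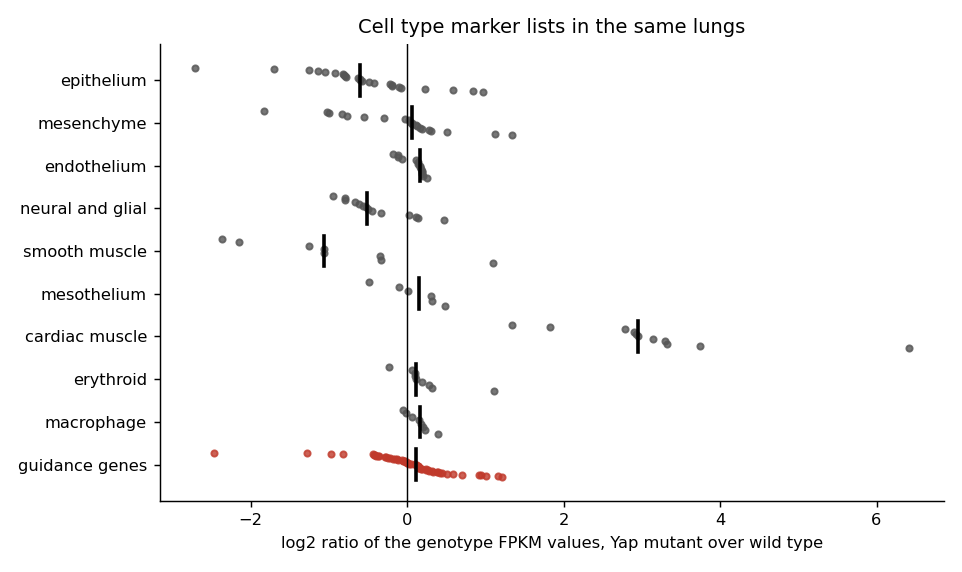
Log2 ratio of Yap mutant over wild-type FPKM (horizontal axis) for each marker gene with a mean of at least 1 FPKM, by cell type list (grey points), and for the 58 guidance genes (red points), with the median of each list as a black bar. The cardiac markers all lie above 0, the epithelial, neural and smooth muscle medians lie below 0, and the guidance gene median is 0.11.

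Of the 58 guidance genes past the filter, 7 were called higher in *Yap* mutant lungs, beside 4.44% of all loci past it, and 4 were called lower, beside 3.3% of all loci. The higher ones were *Sema3a*, *Plxna4*, *Sema3d*, *Epha3*, *Ephb1*, *Sema5b* and *Unc5b*, and the lower ones were *Sema3e*, *Ntn1*, *Ntn4* and *Sema3b*. These counts are 12.1% and 6.9% of the members. At a ratio of at least 2, 3 were higher (*Sema3a*, *Plxna4* and *Sema3d*) beside 2.15% of all loci, and 2 were lower (*Sema3e* and *Ntn1*) beside 1.28%. Where the higher value had to exceed the lower by at least 25%, 14 were higher and 10 lower, beside 9.63% and 6.8% of all loci. The median log2 ratio of the members was 0.11, and that of all loci was -0.01.

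Low genes cross the 1.5-fold line more often, so the calls were also counted by level. Between 1 and 5 FPKM, 7 of 15 members were called, beside 18.5% of all loci of that level. Between 5 and 20 FPKM, 0 of 24 members were called, beside 5.50% of all loci. At 20 FPKM and above, 4 of 19 members were called, beside 2.73% of all loci. Those 4 were *Sema3a*, *Epha3*, *Sema3d* and *Unc5b*, all higher in *Yap* mutant lungs, while the lower members all had means under 5 FPKM.

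**Figure D2:**
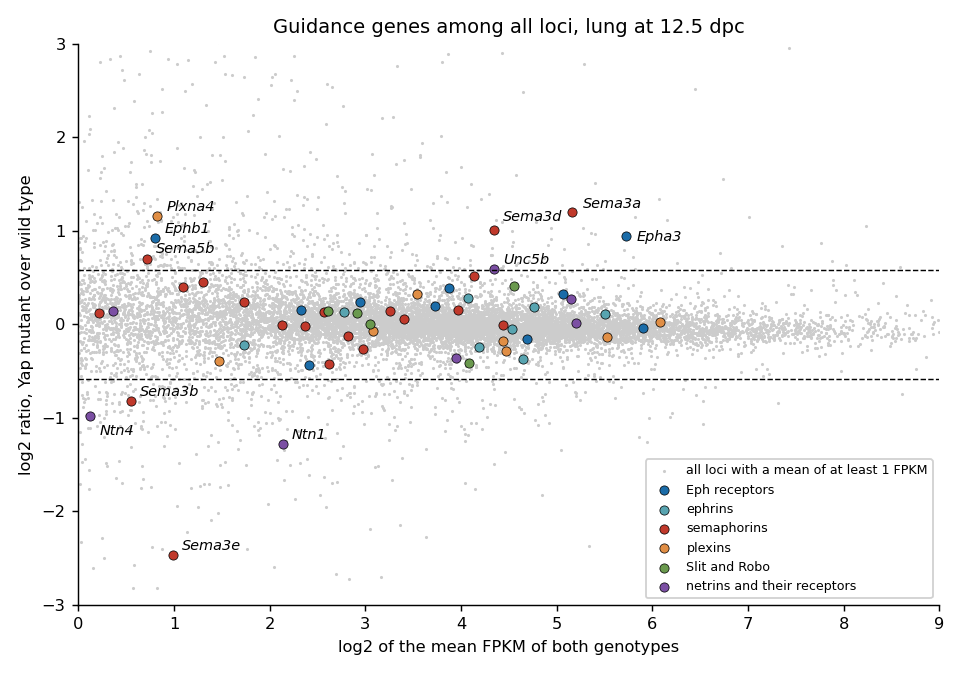
Log2 ratio of Yap mutant over wild-type FPKM (vertical axis) against the log2 of the mean FPKM (horizontal axis) for all 12716 loci past the filter (grey, 198 of them outside the axes) and the 58 guidance genes coloured by family, with dashed lines at a ratio of 1.5 in either direction. Sema3a, Sema3d and Epha3 stand above the upper line at high levels, and Sema3e lies lowest of the members.

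The lowest and the highest log2 ratio among the members past the filter were both those of semaphorins. All 20 passed the filter, with wild-type levels from 1.11 to 21.8 FPKM. Among them 3 were called higher, beside 4.44% of all loci, and 2 lower, beside 3.3%. The family median was 0.13, which stays above 0 under every scaling tried. Of the 7 members of class 3, the secreted semaphorins, 4 were called. Of these, *Sema3b* and *Sema3e* had means between 1 and 5 FPKM, where 18.5% of all loci were called. *Sema3a* and *Sema3d* had means of at least 20 FPKM, where 2.73% of all loci were called. *Sema3a*, a repellent that acts through neuropilin-1 and A-class plexins, had 21.6 FPKM in wild-type and 49.9 FPKM in *Yap* mutant lungs, a log2 ratio of 1.21. *Sema3d*, another secreted member, had 13.5 and 27.2 FPKM, a log2 ratio of 1.01. *Sema3e*, which binds plexin-D1 without a neuropilin and is known for vessel patterning, had 3.42 FPKM in wild-type and 0.535 FPKM in *Yap* mutant lungs, a log2 ratio of -2.47. On this scale *Sema3e* was 5.54-fold lower in the mutants, whereas *Sema3a* was 2.31-fold and *Sema3d* 2.01-fold higher.

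The other class 3 members differed less. *Sema3b*, on chromosome 9 (107597992 to 107609241), was low, at 1.89 and 1.03 FPKM, and was called lower with a log2 ratio of -0.82. *Sema3c*, known for its part in the cardiac outflow tract, had 14.4 and 20.7 FPKM and a log2 ratio of 0.52, just under the line. *Sema3f*, a neuropilin-2 ligand, had 14.8 and 16.5 FPKM, a log2 ratio of 0.15. Between *Sema3b* and *Sema3f* on chromosome 9 lie 3 listed loci. Of these *Gnai2*, a G protein subunit gene, had a log2 ratio of 0.02, the amino acid transporter gene *Slc38a3* was called higher with one of 0.69, and *Gnat1* was under the filter. *Sema3g*, known from endothelium, had 3.03 and 3.61 FPKM. Summed over class 3, the level was 72.6 FPKM in wild-type and 119.5 FPKM in *Yap* mutant lungs, a log2 ratio of the sums of 0.72. *Sema3a* made up 29.7% of that sum in wild-type and 41.8% in *Yap* mutant lungs, *Sema3d* 18.5% and 22.8%, and *Sema3e* 4.71% and 0.448%. Among the 20 semaphorins, *Sema3a* ranked 2 by level in wild-type and 1 in *Yap* mutant lungs, *Sema3d* went from rank 5 to rank 2, and *Sema3e* from rank 14 to rank 20. *Sema3e* moved in the direction of the epithelial, smooth muscle and neural medians, and relative to the epithelial one its log2 ratio was -1.88. *Sema3a*, *Sema3c* and *Sema3d*, like the other members called higher, moved in the direction of the cardiac median of 2.96. The macrophage (0.17), endothelial (0.16), mesothelial (0.16), erythroid (0.11) and mesenchymal (0.05) medians were positive too. The part of any of these cell types in the ratios was not tested.

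**Figure D3:**
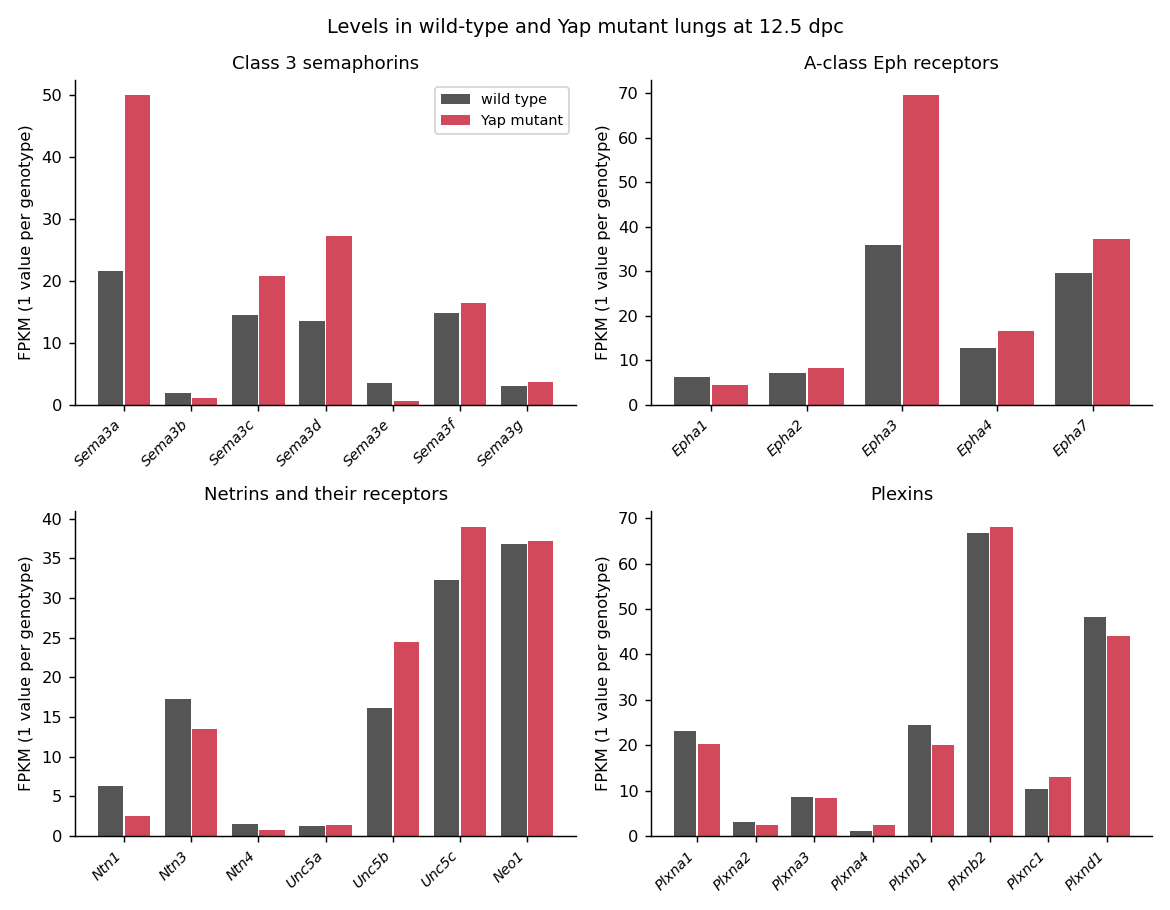
FPKM (vertical axes, from 0) of class 3 semaphorins, A-class Eph receptors, netrins with their receptors, and plexins in wild-type (grey) and Yap mutant (red) lungs, where each bar is the authors' single value for a genotype and has no error. The bars of Sema3a, Sema3d, Epha3 and, from a low level, Plxna4 are taller in the mutants, and the bars of Ntn1 and Sema3e are shorter in the mutants.

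*Sema3d*, *Sema3a*, *Sema3e* and *Sema3c* are neighbours on chromosome 5. On mm10 (GRCm38) their loci run from 12383166 to 12588943 for *Sema3d*, from 13125554 to 13606885 for *Sema3a*, from 14025276 to 14256689 for *Sema3e*, and from 17574532 to 17730267 for *Sema3c*. This stretch of 5.35 Mb holds 13 other listed loci, of which 2 passed the filter and 0 were called. Those 2 were *Cacna2d1*, a calcium channel subunit gene with 5.49 and 6.87 FPKM, and *Hgf*, the gene of hepatocyte growth factor, with 1.20 and 1.67 FPKM. *Sema3e*, called lower, therefore lies next to *Sema3a*, called higher, with *Speer3*, listed at 0 in both genotypes, as the single listed locus between them. The 250 bases before a RefSeq start of each of these semaphorins are given here to show neighbouring genes whose levels differed in opposite directions. Added are those of *Epha3*, the called gene whose window held the letters GGAATG. These letters, or CATTCC on the other strand, are the TEAD-binding motif through which YAP acts, and capitals mark them.
Sema3d (chr5:12382916-12383165, + strand): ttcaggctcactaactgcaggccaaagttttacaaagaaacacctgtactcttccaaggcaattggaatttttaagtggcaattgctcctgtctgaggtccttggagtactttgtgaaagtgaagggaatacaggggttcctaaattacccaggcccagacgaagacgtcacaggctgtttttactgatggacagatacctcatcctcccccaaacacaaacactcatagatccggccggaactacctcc
Sema3a (chr5:13396534-13396783, + strand): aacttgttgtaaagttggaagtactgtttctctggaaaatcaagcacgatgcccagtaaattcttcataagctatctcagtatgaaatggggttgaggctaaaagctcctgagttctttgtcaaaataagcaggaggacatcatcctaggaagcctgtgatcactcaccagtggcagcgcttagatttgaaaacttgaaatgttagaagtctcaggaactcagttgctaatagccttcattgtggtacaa
Sema3e (chr5:14025026-14025275, + strand): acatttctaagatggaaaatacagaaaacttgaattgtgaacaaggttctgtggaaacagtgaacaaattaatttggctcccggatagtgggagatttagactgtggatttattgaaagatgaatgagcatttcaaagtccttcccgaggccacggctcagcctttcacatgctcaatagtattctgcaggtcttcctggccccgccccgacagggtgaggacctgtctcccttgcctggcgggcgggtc
Sema3c (chr5:17574566-17574815, + strand): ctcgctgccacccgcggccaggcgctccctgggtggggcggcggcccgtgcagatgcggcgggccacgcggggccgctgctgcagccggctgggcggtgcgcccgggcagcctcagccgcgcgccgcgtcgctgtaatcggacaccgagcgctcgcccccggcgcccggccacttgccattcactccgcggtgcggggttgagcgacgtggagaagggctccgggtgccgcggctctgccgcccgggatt
Epha3 (chr16:63864176-63864425, - strand): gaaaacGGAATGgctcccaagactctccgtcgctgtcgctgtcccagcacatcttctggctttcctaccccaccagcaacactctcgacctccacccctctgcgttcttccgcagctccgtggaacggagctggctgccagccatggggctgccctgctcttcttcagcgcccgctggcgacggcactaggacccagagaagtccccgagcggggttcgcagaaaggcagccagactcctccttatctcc

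None (0) of the 4 semaphorin windows held the motif letters, which says only that these letters are not there. The windows differed in base composition. Over 300 bases, including 50 after the start, the window of *Sema3c* held 42 CpG and that of *Sema3a* held 2, with 8 at *Sema3d* and 11 at *Sema3e*. The *Sema3a* window belongs to a start inside the locus, whose listed beginning lies further upstream, so its letters and CpG do not describe that beginning. Windows of some other members, such as *Robo1* and *Sema4d*, also lie inside the RefSeq span. Of the 58 members with a window in the RefSeq table (GRCm38.p6), 7 held the letters on either strand (12.1%), beside 14.7% of 27025 genes in the table. Among the 9298 genes with a window that passed the FPKM filter the share was 12.1%. Of the 51 members with a window that passed it, 13.7% held the letters. The 7 were *Epha1*, *Epha2*, *Epha3*, *Efnb2*, *Ntn3*, *Plxnb1* and *Plxnd1*, and *Epha3* alone of these was called. The 51 members with a window that passed the filter had a median of 23 CpG per window, beside 21 for the 9298 genes.

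**Figure D4:**
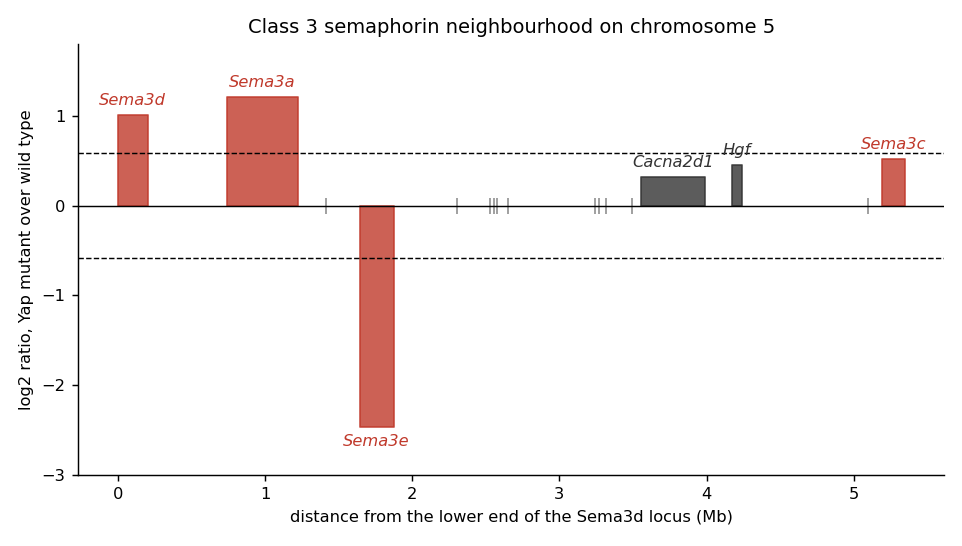
Log2 ratio of Yap mutant over wild-type FPKM (vertical axis) along the chromosome 5 stretch, by distance from the lower end of the Sema3d locus in Mb (horizontal axis), for class 3 semaphorins (red) and other loci past the filter (dark), with ticks for loci under 1 FPKM and dashed lines at a ratio of 1.5. Sema3d and Sema3a extend upward past the line, Sema3e extends down to -2.47, and Cacna2d1 and Hgf stay inside the lines.

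The membrane-bound semaphorins mostly stayed within the 1.5-fold lines. *Sema4c*, a ligand of plexin-B2, was the most abundant semaphorin in wild-type lungs, at 21.8 FPKM and 21.6 FPKM in the mutants. The 6 class 4 members had log2 ratios between -0.42 (*Sema4f*) and 0.13 (*Sema4g*), and their summed level was 45.1 and 43.7 FPKM. In class 5, *Sema5b*, on chromosome 16 (35541362 to 35664365), was called higher at 1.23 and 2.07 FPKM (log2 ratio 0.70), whereas *Sema5a* had 8.60 and 7.13 FPKM. The mean of *Sema5b* lay between 1 and 5 FPKM, where 18.5% of all loci were called. In class 6 the log2 ratios lay between -0.12 (*Sema6a*) and 0.40 (*Sema6b*). *Sema7a*, which is held in the membrane by a lipid anchor and binds plexin-C1, had 2.07 and 2.86 FPKM.

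Plexins, the semaphorin receptors, were among the more abundant members. Of 8 past the filter 1 was called, and it was higher, beside 4.44% of all loci. This was *Plxna4*, with a mean between 1 and 5 FPKM, where 18.5% of all loci were called in either direction. *Plxnb2* had 66.8 FPKM in wild-type and 68.2 FPKM in *Yap* mutant lungs, the highest level of any member in wild-type lungs. *Plxnd1*, the receptor of Sema3E and an endothelial gene, had 48.1 and 44.0 FPKM, so receptor and ligand differed by log2 ratios of -0.13 and -2.47. *Plxnb1*, the receptor of Sema4D, had 24.4 FPKM in wild-type lungs and a log2 ratio of -0.28. None of these abundant plexins was called, with *Plxnb1* the farthest from 0. *Plxna4*, which serves class 3 and class 6 semaphorins, was called higher from a low level, with 1.06 and 2.48 FPKM and a log2 ratio of 1.16. Its locus on chromosome 6 (32144270 to 32588214) takes in another listed locus, B230378P21Rik. The remaining A-class plexins had ratios below 0 as deposited. *Plxna1* had 23.1 and 20.3 FPKM, *Plxna2* 3.15 and 2.37 FPKM and *Plxna3* 8.69 and 8.28 FPKM. *Plxnc1* had 10.3 and 12.9 FPKM. The family median was -0.10, which turns to 0.50 relative to the epithelial markers, a scaling under which the median of all loci is 0.59. The coreceptor *Nrp1* had 19.1 and 20.8 FPKM and *Nrp2* had 20.5 and 17.0 FPKM, and neither was called.

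Of the 3 netrin ligands past the filter 2 were called lower. Both had means between 1 and 5 FPKM, where 18.5% of all loci were called in either direction. Of the 4 netrin receptors past the filter 1 was called higher, beside 4.44% of all loci. *Ntn1*, a secreted relative of the laminins on chromosome 11 (68209364 to 68386826), had 6.28 FPKM in wild-type and 2.52 FPKM in *Yap* mutant lungs, a log2 ratio of -1.28 or a 2.43-fold lower level. *Ntn4*, a basement membrane netrin on chromosome 10 (93641049 to 93747159), had 1.48 and 0.702 FPKM, a log2 ratio of -0.98, and its span overlaps 2 small listed loci. Both were called lower, in the direction of the epithelial, smooth muscle and neural medians, and the part of those cells was not tested. Relative to the epithelial median the log2 ratios were -0.69 for *Ntn1* and -0.38 for *Ntn4*, the second inside the 1.5-fold line. *Ntn3* shares a locus with *Tbc1d24*, so its own level is uncertain, and the joint value was 17.3 and 13.5 FPKM.

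Among the receptors, *Unc5b*, which is also known from endothelium and lies on chromosome 10 (60762595 to 60831629), was called higher, with 16.2 and 24.4 FPKM and a log2 ratio of 0.59, just past the line. *Unc5c* had 32.2 and 39.0 FPKM, and *Unc5a* had 1.21 and 1.36 FPKM. The Unc5 receptors past the filter therefore all had higher deposited values in the mutants, and the 4 summed to 50.4 and 65.1 FPKM. *Neo1*, which encodes neogenin, was the most abundant netrin receptor in wild-type lungs, at 36.8 FPKM and 37.1 FPKM in the mutants. *Dcc* was low, with 0.598 and 1.01 FPKM, and did not pass the filter. None (0) of the 15 endothelial markers was called, and their median log2 ratio was 0.16. All 11 cardiac markers past the filter were called higher, as was *Unc5b*. The mesenchymal, mesothelial, macrophage and erythroid medians were positive too. The part of any of these cell types in the value of *Unc5b* was not tested.

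Eph receptors differed most in the A class. *Epha3*, a receptor of ephrin-A5 on chromosome 16 (63543534 to 63864231), had 35.9 FPKM in wild-type and 69.5 FPKM in *Yap* mutant lungs, a log2 ratio of 0.95. It ranked 2 among the 14 Eph receptors in wild-type lungs and 1 in the mutants, where it took 50.7% of the summed A-class level against 38.7% in wild-type lungs. *Epha7* had 29.6 and 37.2 FPKM (log2 ratio 0.33) and *Epha4* had 12.7 and 16.6 FPKM (log2 ratio 0.39). *Epha2* had 7.02 and 8.32 FPKM. *Epha1*, an epithelial receptor, was the only A-class member past the filter with a lower value in the mutants, at 6.14 and 4.51 FPKM. Summed over the A class, the level was 92.9 FPKM in wild-type and 137.0 FPKM in *Yap* mutant lungs, a log2 ratio of the sums of 0.56. The cardiac markers were higher, as *Epha3* was, and the mesenchymal, endothelial, mesothelial, macrophage and erythroid medians were positive too. The part of any of these cell types in the value of *Epha3* was not tested.

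In the B class the sums were 106.1 and 105.3 FPKM. *Ephb4*, the ephrin-B2 receptor of veins, was the most abundant Eph receptor in wild-type lungs, at 60.6 FPKM and 59.2 FPKM in the mutants. *Ephb3* had 27.2 and 24.4 FPKM, *Ephb2* had 12.3 and 14.1 FPKM, and *Ephb6*, which lacks kinase activity, had 4.74 and 5.27 FPKM. *Ephb1*, on chromosome 9 (101922128 to 102354693), was the one B-class member called, from a low level, with 1.18 and 2.32 FPKM and a log2 ratio of 0.92. The median over the 10 Eph receptors past the filter was 0.22, with 7 above 0 and 3 below. Among them 2 were called higher, beside 4.44% of all loci, and 0 lower, beside 3.3%. *Epha3* had a mean of at least 20 FPKM, where 2.73% of all loci were called. *Ephb1* had a mean between 1 and 5 FPKM, where 18.5% of all loci were called.

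Ephrins, the ligands of the Eph receptors, all passed the filter and none (0) of the 8 was called. Over all loci, 4.44% were called higher and 3.3% lower. The ephrins had these levels. Their summed level was 166.3 FPKM in each genotype. *Efnb1* was the most abundant, with 43.8 and 47.2 FPKM, followed in wild-type lungs by *Efna4* with 28.4 and 21.9 FPKM and *Efnb2* with 25.4 and 28.9 FPKM. As deposited, the 3 transmembrane ephrin-B ligands had log2 ratios from 0.11 to 0.28, with *Efnb3* highest at 15.2 and 18.6 FPKM. The lipid-anchored ephrin-A ligands had a median of -0.22. That median lies above 0 relative to the epithelial markers, a scaling under which the median of all loci is 0.59. *Efna1*, *Efna3* and *Efna4* lie within 67.0 kb on chromosome 3 (89271730 to 89338746), and all 3 had lower deposited values in the mutants. *Efna1* had 19.8 and 16.8 FPKM (log2 ratio -0.24), *Efna3* had 3.58 and 3.06 FPKM (log2 ratio -0.22), and *Efna4* had a log2 ratio of -0.37. *Efna5*, the ligand of EphA3, had 6.54 and 7.19 FPKM, a log2 ratio of 0.14 beside the 0.95 of its receptor. *Efna2* had 23.5 and 22.7 FPKM, and its listed span is shared by 46 rows of the table, so it does not locate the gene. *Efnb1* and *Plxna3* are on X. The genotypes also differed in *Xist*, with 97 and 50.4 FPKM, and in the Y-linked *Ddx3y*, with 0.0163 and 10.2 FPKM. The part of embryo sex in the values of any member, X-linked or autosomal, was not tested and cannot be told apart from genotype.

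Slit and Robo genes stayed within the 1.5-fold lines, and none (0) of the 5 past the filter was called. Over all loci, 4.44% were called higher and 3.3% lower. *Slit3*, the most abundant Slit ligand, had 20.1 FPKM in wild-type and 26.8 FPKM in *Yap* mutant lungs, a log2 ratio of 0.42. *Slit2* had 5.81 and 6.43 FPKM. *Robo1*, the main receptor by level, had 19.3 and 14.5 FPKM, a log2 ratio of -0.42. *Robo2* had 8.30 FPKM in both genotypes, and *Robo4*, an endothelial member, had 7.24 and 7.87 FPKM. The ligand *Slit3* and the receptor *Robo1* thus differed by similar amounts in opposite directions, both at a ratio under 1.5.

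**Figure D5:**
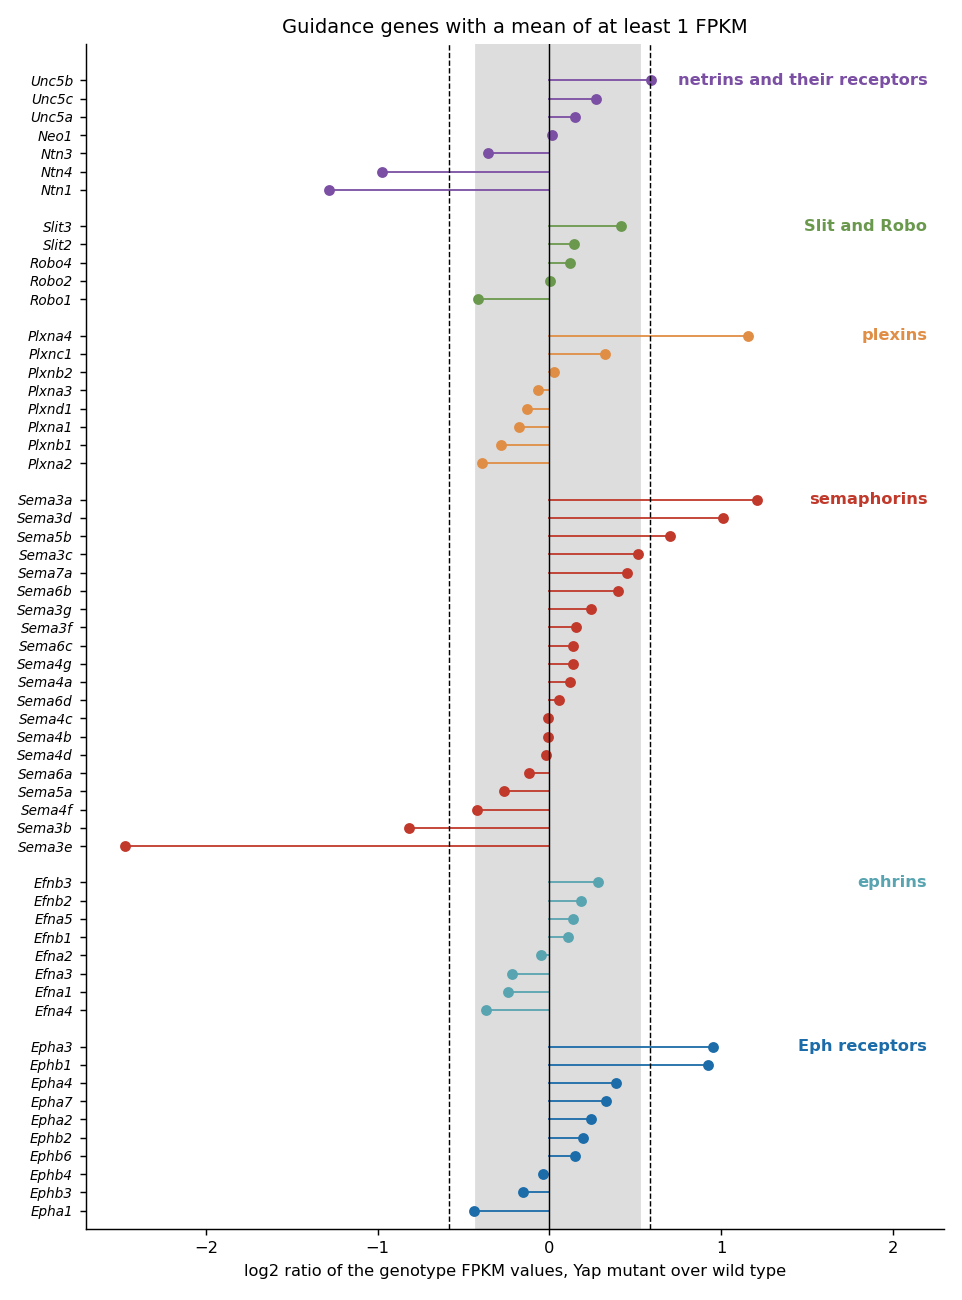
Log2 ratio of Yap mutant over wild-type FPKM (horizontal axis) for each of the 58 guidance genes with a mean of at least 1 FPKM, by family, with the 5 to 95 percentile range of all loci past the filter in grey and dashed lines at a ratio of 1.5. Sema3e, Ntn1, Ntn4 and Sema3b lie left of the lines, 7 members lie right of them, and every ephrin and every Slit or Robo gene lies between them.

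The 10 members under the filter were *Epha5*, *Epha6*, *Epha8*, *Epha10*, *Plxnb3*, *Slit1*, *Robo3*, *Ntn5*, *Unc5d* and *Dcc*, and none was listed at 0. Their means ran from 0.0290 FPKM (*Epha6*) to 0.822 FPKM (*Epha5*). *Unc5d* had 0.720 and 0.271 FPKM and *Epha8* had 0.468 and 0.0447 FPKM, which are too low to read a difference from without a known depth. *Slit1* had 0.151 and 0.0340 FPKM, so *Slit2* and *Slit3* made up nearly all of the Slit level.

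Other genes of these pathways were counted in the same way. Of 19 coreceptors and further ligands or binding partners past the filter, 4 were called lower, beside 3.3% of all loci, and 1 higher, beside 4.44%, with a median log2 ratio of -0.24. The lower ones were *Rgma*, a neogenin ligand, with 15.0 and 7.22 FPKM, the netrin-G gene *Ntng1*, with 1.58 and 0.521 FPKM, the integrin gene *Itga3*, with 13.7 and 8.68 FPKM, and *Met*, a receptor kinase that joins plexins, with 4.54 and 2.46 FPKM. *Flrt3*, an Unc5 ligand, was called higher just past the line, with 5.02 and 7.63 FPKM and a log2 ratio of 0.59. Its listed locus (chromosome 2, 140395419 to 142390050) overlaps another, and it was not called with a pseudocount of 1 FPKM. *Rgma* and *Ntn1* were thus both lower while their shared receptor neogenin had nearly the same level in both genotypes. Of 46 loci of intracellular effectors, 2 were called lower and 1 higher, with a median of -0.04. These counts are near or under the shares over all loci, 3.3% lower and 4.44% higher. The lower ones, *Dpysl4* (9.98 and 5.60 FPKM) and *Dpysl5* (5.93 and 3.06 FPKM), encode collapsin response mediators that are known from neurons. Beside them, 5 of 14 neural and glial markers were called lower, and the part of those cells in both values was not tested. *Mical2*, which encodes an enzyme that oxidises actin, was higher, with 5.29 and 8.96 FPKM.

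In genomic features that played no part in the choice, the members past the filter were long genes, with a median locus length of 52.2 kb beside 27.8 kb for all loci past it. Slit and Robo genes had a median of 483 kb and ephrins one of 17.4 kb. The members lay on 19 chromosomes, with 7 on chromosome 5, 6 on chromosome 16 and 3 on X. All 68 loci overlapped the RefSeq gene of their symbol on GRCm38, 1 held a further symbol, and the spans of 11 overlapped another listed locus.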

How the data were processed

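RNA-Seq of whole lungs was deposited for 3 wild-type and 3 Yap-flox/flox; Shh-Cre/+ libraries. The authors made the deposited FPKM values with tools that the submitters' processing notes name as TopHat and Cuffdiff, on mm10, from strand-specific paired-end libraries. Their versions and counting options were not given in the sources used here. The authors' deposited tables are 2, of 24402 loci and of 2395 loci listed as changed. Both give 1 FPKM value per genotype (the unit was read from the Cuffdiff layout), so depth per library is unknown. Their columns of fold changes and p-values hold the authors' comparison and were not used. Columns of other samples numbered 0.

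The log2 ratio of *Yap* mutant over wild type was computed with a pseudocount of 0.1 FPKM. Loci whose mean over both genotypes reached 1 FPKM were kept, and a ratio of at least 1.5 was called, without a test. Named were all called members, the 3 members of highest mean in each family and their partners, and called pathway genes. Other members named were chosen after their values were seen. The members and lists were chosen with earlier results of these data known. Locus starts were raised by 1. Motif letters were searched on both strands of RefSeq promoter windows, from 250 bases before to 50 after a start. The 5'-most window available for each gene was used, and it can lie inside the RefSeq span of the gene. Members with no window were *Dcc*, *Efnb3*, *Ntn1*, *Plxna1*, *Plxna4*, *Sema3b*, *Sema3f*, *Sema6a*, *Slit1* and *Unc5d*. The ratio and its calls were run on simulated loci with planted changes beyond the line and little noise. That run checks the arithmetic only, not any call made here, since it held no spread between libraries. Alternatives covered the pseudocount, the filter, the fold, scaling, and loci that overlap or hold several symbols. Python 3.11.15 with numpy 2.4.6, pandas 2.3.3 and matplotlib 3.10.9 was used.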

Additional observations from a re-analysis of the deposited data

How the results depend on the processing

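No paired analysis was possible because the deposited values are 1 per genotype, and for the same reason no library could be left out. The promoter window of 500 bases was not run, since no genome sequence was used here. For the 25 named members, leaving out the pseudocount, centring on the median of all loci, dropping loci with several symbols and taking the values of the table of changed loci left every direction and every call as it was, and no called member turned its direction under any alternative. Scaling both genotypes to equal FPKM sums turned *Ephb4* and *Sema4c*, both near 0, and the values relative to the epithelium list also turned *Efna4*, *Plxnb1*, *Plxnd1* and *Robo1*, none of them called.

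Members called higher and lower numbered 7 and 4. With a pseudocount of 1 FPKM, 5 members were higher, beside 3.09% of all loci, and 2 lower, beside 2.33%. *Ntn4* and *Sema3b* lay inside the line, as did *Sema5b* and *Unc5b* among the higher ones, and 0 coreceptors and partners were higher. Where the mean had to reach 5 FPKM, 4 members were higher, beside 2.27% of all loci, and 0 lower, beside 1.91%. *Sema3e* and *Ntn1* have means under that level, and 2 coreceptors and partners and 1 effector were lower. The netrin family median was then 0.14. With no filter, 8 members were higher, beside 6.36% of all loci, and 7 lower, beside 4.16%. Then 2 effectors were higher, and the Eph and the Slit and Robo medians were 0.058 and 0.0012. At a ratio of at least 2, 3 members were higher, beside 2.15% of all loci, and 2 lower, beside 1.28%. Among coreceptors and partners 0 were higher and 2 lower, and among effectors 0 in each direction. Where 25% between the values was enough, 14 members were higher, beside 9.63% of all loci, and 10 lower, beside 6.8%. Among coreceptors and partners 4 were higher and 8 lower, and 5 effectors were lower. Without loci that overlap another listed locus, chosen after seeing the data, the Slit and Robo median was -0.15 and 0 coreceptors and partners were higher. Relative to the epithelium list, a scaling that raises every locus alike, the median of all loci moved to 0.59. Then 35 members were higher, beside 51.2% of all loci, and 2 lower (*Sema3e* and *Ntn1*), beside 0.849%. Coreceptors and partners then had 6 higher and 1 lower, effectors 18 higher and 0 lower, and the medians were 0.81 for Eph receptors, 0.62 for ephrins, 0.72 for semaphorins, 0.50 for plexins, 0.71 for Slit and Robo and 0.61 for netrins and their receptors. With no library values, neither counting error nor biological spread bounds any of these ratios.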
